A study of Homo sapiens with 4 samples.

Results

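The genes described here are 10 members of the interleukin-6 cytokine pathway: the ligands IL11, LIF and IL6, the receptor chains IL6ST (gp130), LIFR, OSMR, IL6R and IL11RA, and the intracellular genes STAT3 and SOCS3. They were matched by gene symbol, and all 10 were found among the 20137 genes of the deposited tables. They were chosen by the measured difference between knockdown and control, within each replicate number, that of IL11 above all, so these differences are given as a description and not as evidence. The cells were MDA-MB-231, a human triple-negative breast cancer line. In 2 libraries, titled shA, AURKA was knocked down. The other 2, titled shC, were controls, which the series' own text describes as mock-transfected. AURKA encodes Aurora kinase A, a kinase of mitosis, and the series title asks which genes it regulates in their transcription. All 4 libraries came from the same line, grown in L-15 medium with serum. The design text calls the 2 replicates of a group biological, but no source used here says whether they were separate cultures, or how many clones or hairpins were used, so part of the spread between them may be technical.

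Cytokines of this family act through gp130. IL6 and IL11 first bind their own receptor, IL6R or IL11RA, which has no signalling part of its own, and the complex then recruits gp130 pairs. LIF instead joins gp130 to LIFR, and oncostatin M joins gp130 to OSMR or LIFR. Receptor-bound JAK kinases then phosphorylate STAT3, which enters the nucleus and turns on genes such as SOCS3, an inhibitor that binds gp130 and shuts the signal off. In breast cancer cells, IL11 and LIF are known for autocrine signalling, and IL11 also for its place in bone metastasis. The mRNAs of the ligands are short-lived, and AU-rich words in their 3′ untranslated regions (UTRs) are bound by decay factors.

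Most members carry such words, a sequence feature that their choice did not use. All 3 ligands and OSMR are shown here, the members with 3 or more copies of the longer word TATTTAT. The capitals are the pentamer ATTTA within the densest 30 bases of the longest 3′ UTR in GENCODE 29. The stretch in IL11 (chromosome 19) covers bases 690 to 719 of transcript ENST00000264563, that in LIF (chromosome 22) bases 3865 to 3894 of ENST00000249075, that in IL6 (chromosome 7) bases 621 to 650 of ENST00000407492, and that in OSMR (chromosome 5) bases 5332 to 5361 of ENST00000274276.
IL11: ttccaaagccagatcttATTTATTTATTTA
LIF: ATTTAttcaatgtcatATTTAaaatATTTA
IL6: ttttaattatttttaATTTAttaatATTTA
OSMR: gggccagtattgtcagcATTTATTTATTTA

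The longer word TATTTAT occurred 7 times in the 3′ UTR of IL11, 5 times in that of LIF, and 3 times each in those of IL6 and OSMR. Among 11702 tested genes with an annotated 3′ UTR, 7.26% held it 3 times or more, a cutoff taken from the genes shown. It occurred 2 times in SOCS3, once in IL6ST and LIFR, and was absent from STAT3, IL6R and IL11RA. ATTTA itself stood in 9 of the 10 members and in 74.0% of all genes. The counts of IL6ST and IL11RA are from ENST00000381287 and ENST00000318041, both listed at 0 in all 4 libraries. That of IL6 is from ENST00000407492, listed at 0 in knockdown replicate 2 and control replicate 1. Overlapping copies were counted, and no decay was measured.

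The promoter windows of IL11 and IL6R are shown because these were the members with the largest differences on the scales used. RefSeq (GRCh38.p14) gave 13 windows, from 250 bases before to 50 after a start, for 9 of the 10 genes: each but LIF. The IL11 window lies on the minus strand of chromosome 19, at chr19:55370414-55370713, and that of IL6R on the plus strand of chromosome 1, at chr1:154405093-154405392. The capitals mark TGANTCA, the AP-1 word, which was read on both strands.
IL11: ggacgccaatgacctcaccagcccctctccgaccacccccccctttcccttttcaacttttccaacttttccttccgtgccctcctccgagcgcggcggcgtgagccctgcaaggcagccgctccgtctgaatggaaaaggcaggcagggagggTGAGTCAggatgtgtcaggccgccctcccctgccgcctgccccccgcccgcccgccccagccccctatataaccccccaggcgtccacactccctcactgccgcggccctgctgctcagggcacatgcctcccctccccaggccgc
IL6R: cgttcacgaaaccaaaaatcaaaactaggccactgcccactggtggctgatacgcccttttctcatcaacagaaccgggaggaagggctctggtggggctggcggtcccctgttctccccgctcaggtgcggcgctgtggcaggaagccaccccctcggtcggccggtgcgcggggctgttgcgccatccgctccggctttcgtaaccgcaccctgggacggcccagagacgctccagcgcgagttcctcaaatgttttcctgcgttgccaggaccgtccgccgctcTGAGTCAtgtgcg

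The AP-1 word began 96 bases before the start of IL11 and 37 bases after that of IL6R, and it also stood 3 bases after the start of OSMR. It is found in 7.71% of all 35116 RefSeq windows of the same length. TTCNNNGAA, a STAT word, stood in 2 of the 3 LIFR windows and in no other member's window, against 7.66% of all windows. A match to the NF-kappaB consensus began 73 bases before the start of IL6, and others lay in windows of IL6ST and IL11RA (11.3% of all windows). CCGGAAGT, an ETS word, was in no member's window (4.14% of all windows). These are matches of letters and not binding sites.

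Gene levels are given in FPKM, fragments per kilobase of transcript, scaled to the fragments of the library, summed over the transcripts of a gene. FPKM is scaled by length, so levels of different genes can be compared. Values of a group are given in the order replicate 1, replicate 2. AURKA itself was at 22.3 and 23.7 FPKM in the knockdown libraries, against 124 and 99.1 FPKM in the controls. The files hold no read totals. From the value of 1 fragment in genes with a single transcript, depths were estimated at 21300000 and 27600000 fragments for the knockdown libraries and 17400000 and 24100000 for the controls. The 6 markers of the line, such as VIM and CD44, were above 100 FPKM in every library, and the 5 leukocyte markers summed to 0.651 and 0.542 FPKM in the knockdown libraries and 0.367 and 0.363 FPKM in the controls, with CD3E at 0. Of the luminal markers, ESR1, PGR and CDH1 were at 0.271 FPKM or less, while GATA3 was at 2.07 to 2.36 FPKM and ERBB2 at 16.5 to 20.2 FPKM. Of 5 fibroblast markers, COL1A1 was at 1.04 to 3.61 FPKM and PDGFRB at 1.37 to 2.77 FPKM, and the others were at 0.464 FPKM or less. In bulk RNA, fewer cells that make a transcript and less of it per cell cannot be told apart.

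IL11, a ligand that signals through IL11RA and gp130, was the most abundant member in the controls and had the largest difference of the members on the log2(FPKM + 1) scale. By fold, or with a pseudocount of 0.1, that of IL6R was larger. IL11 had 26.1 and 34.3 FPKM in the knockdown libraries, against 75.5 and 81.9 FPKM in the controls (30.2 ± 5.7 and 78.7 ± 4.6, SD, n = 2 each). The groups did not overlap, and the lowest control was over 2 times the highest knockdown library. The mean was 2.61-fold lower in the knockdown. It was 2.89-fold lower in the replicate 1 pair and 2.39-fold lower in the replicate 2 pair. On the log2(FPKM + 1) scale the difference was -1.36, and 14 of 12136 tested genes had a lower one. The gene (ENSG00000095752) lies on chromosome 19 at 55875756 to 55881831 in the coordinates of the files (GRCh37), and no other gene shares its locus there.

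LIF, which signals through LIFR and gp130, went opposite ways in the pairs. It had 46.2 and 39.4 FPKM in the knockdown libraries, against 68.7 and 28.9 FPKM in the controls (42.8 ± 4.9 and 48.8 ± 28.2, SD, n = 2 each). The controls lay above and below both knockdown libraries, so the groups overlapped. Its level was 1.49-fold lower in the replicate 1 pair and 1.36-fold higher in the replicate 2 pair. Without control replicate 1 the log2 difference was 0.55, and without control replicate 2 it was -0.68. The mean difference of -0.06 thus stands for no common shift. LIF (ENSG00000128342) lies on chromosome 22 at 30635182 to 30642907.

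IL6 was low. It had 2.55 and 1.88 FPKM in the knockdown libraries, against 2.98 and 0.494 FPKM in the controls. With the estimated depths this is about 46.4 and 55.3 fragments in the knockdown libraries and 47.1 and 9.2 in the controls. Control replicate 2 was the lowest library and control replicate 1 the highest, so the groups overlapped. The log2 difference was -0.17 in the replicate 1 pair and 0.95 in the replicate 2 pair. IL6 (ENSG00000136244) lies on chromosome 7 at 22765502 to 22771621.

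**Figure D1:**
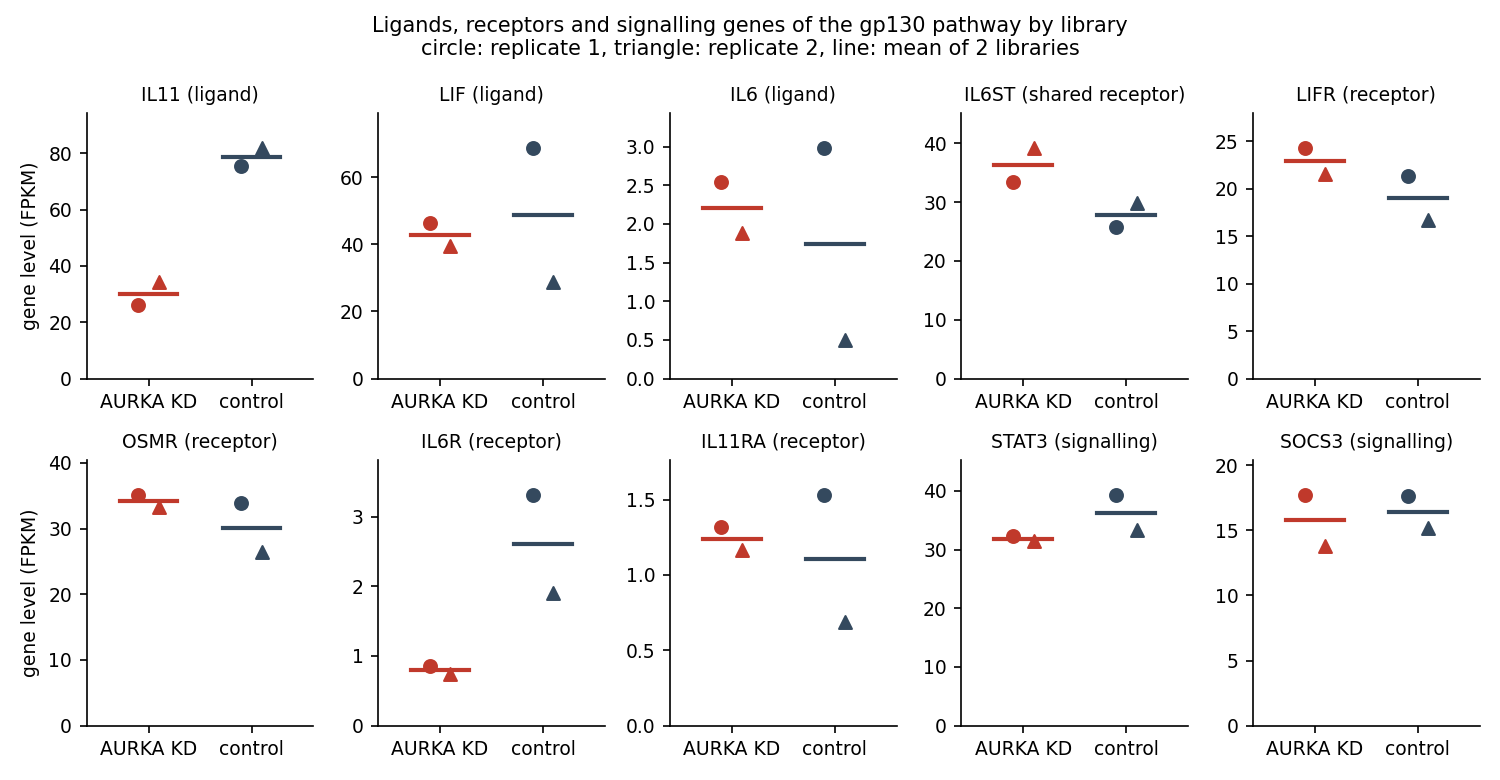
Gene level in FPKM (vertical axes, from 0) of the 10 members in AURKA knockdown (AURKA KD) and control libraries. Circles are replicate 1, triangles replicate 2, and lines the mean of 2 libraries. IL11 lies at 26.1 and 34.3 FPKM in the knockdown and at 75.5 and 81.9 FPKM in the controls, while the controls of LIF lie at 68.7 and 28.9 FPKM, on either side of the knockdown libraries.

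The balance among the ligands therefore differed by library. IL11 was at 0.566 and 0.870 times the level of LIF in the knockdown libraries, against 1.098 and 2.84 times in the controls. Of these ratios, the 2 control ones lay above the 2 knockdown ones. The ratio of IL11 to IL6 was 10.3 and 18.3 in the knockdown libraries, against 25.3 and 166 in the controls, where the last value rests on the low IL6 of control replicate 2.

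Among the receptors, IL6ST was higher in the knockdown in both pairs. This shared signalling chain had 33.3 and 39.2 FPKM in the knockdown libraries, against 25.7 and 29.9 FPKM in the controls (36.3 ± 4.1 and 27.8 ± 2.9, SD, n = 2 each). The groups did not overlap, although the lowest knockdown library exceeded the highest control by less than the SD of the knockdown group. The level was 1.30-fold higher in the replicate 1 pair and 1.31-fold higher in the replicate 2 pair, and the log2 difference was 0.37, with 710 tested genes above it. IL6ST (ENSG00000134352) lies on chromosome 5 at 55230922 to 55290821.

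LIFR and OSMR, the chains that pair with gp130 for LIF and oncostatin M, differed little. LIFR had 24.3 and 21.5 FPKM in the knockdown libraries, against 21.4 and 16.7 FPKM in the controls. The groups came within 0.2 FPKM of each other without overlapping. OSMR had 35.1 and 33.2 FPKM in the knockdown libraries, against 33.9 and 26.4 FPKM in the controls, with overlap. The ratio of LIFR to OSMR was nearly constant, at 0.693 and 0.648 in the knockdown libraries and 0.631 and 0.634 in the controls. Both genes lie on chromosome 5, OSMR (ENSG00000145623) at 38845959 to 38935743 and LIFR (ENSG00000113594) at 38475064 to 38608964 in the replicate 1 tables, whose end is 38595506 in the replicate 2 tables.

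IL6R, the specific receptor of IL6, was low everywhere and lower in the knockdown. It had 0.858 and 0.746 FPKM in the knockdown libraries, against 3.31 and 1.90 FPKM in the controls. This corresponds to about 107.9 and 112.6 fragments in the knockdown libraries and 315.6 and 263.9 in the controls. The groups did not overlap, the mean was 3.25-fold lower in the knockdown, and the pairs gave 3.86-fold and 2.55-fold. On the log2(FPKM + 1) scale, which understates changes of such low genes, the difference was -0.97. IL6R passed the filter of 1 FPKM in 2 libraries through the controls alone, so among tested genes it could only have been lower. It lies on chromosome 1 (ENSG00000160712, 154377668 to 154441926).

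IL11RA, the receptor of IL11, had 1.32 and 1.16 FPKM in the knockdown libraries, against 1.53 and 0.687 FPKM in the controls. The controls lay on either side of the knockdown libraries. Its locus on chromosome 9 (ENSG00000137070, 34646632 to 34661889) is shared with GALT in the files, so its value is uncertain.
The 2 ligand-binding chains thus stood far below gp130: the level of IL6ST was 38.9 and 52.6 times that of IL6R in the knockdown libraries, against 7.77 and 15.7 times in the controls, and 25.3 and 33.7 times that of IL11RA in the knockdown libraries, against 16.8 and 43.5 times in the controls.

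Of the intracellular genes, STAT3, the transcription factor of the pathway, had 32.3 and 31.4 FPKM in the knockdown libraries, against 39.3 and 33.3 FPKM in the controls. The groups did not overlap, but control replicate 2 was only 1.06-fold above its knockdown partner. SOCS3, the feedback inhibitor that STAT3 induces, had 17.7 and 13.8 FPKM in the knockdown libraries, against 17.7 and 15.2 FPKM in the controls. The groups overlapped almost fully, with a log2 difference of 0.01 in the replicate 1 pair and -0.13 in the replicate 2 pair. STAT3 (ENSG00000168610, 40465341 to 40540586) and SOCS3 (ENSG00000184557, 76352863 to 76356158) both lie on chromosome 17.

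**Figure D2:**
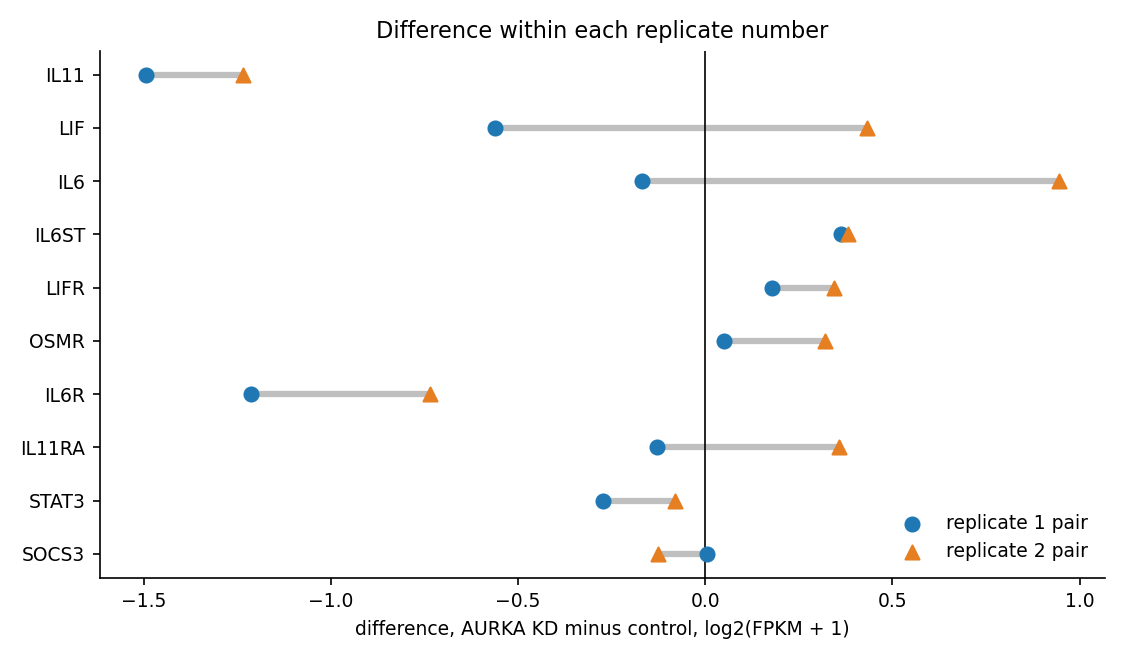
Difference between AURKA knockdown and control (AURKA KD minus control, log2(FPKM + 1), horizontal axis) for each member, in the replicate 1 pair (circles) and the replicate 2 pair (triangles), joined by a bar. IL11 and IL6R lie left of 0 in both pairs and IL6ST right of 0 with 0.36 and 0.38, while LIF runs from -0.56 to 0.43 across the pairs.

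The order of the levels differed between the groups. In the knockdown the order was LIF (42.8 FPKM), IL6ST (36.3), OSMR (34.2), STAT3 (31.9), IL11 (30.2), LIFR (22.9), SOCS3 (15.8), IL6 (2.21), IL11RA (1.24) and IL6R (0.802 FPKM). There IL6ST and OSMR, and STAT3 and IL11, were neighbours whose libraries overlapped. In the controls the order was IL11 (78.7 FPKM), LIF (48.8), STAT3 (36.3), OSMR (30.1), IL6ST (27.8), LIFR (19.1), SOCS3 (16.4), IL6R (2.61), IL6 (1.74) and IL11RA (1.11 FPKM). In that group the neighbours that stood clear were IL11 over LIF, IL6ST over LIFR, and SOCS3 over IL6R, and the other 6 steps lay within the spread of the libraries.

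Limma-trend was fitted to the 12136 genes that reached 1 FPKM in 2 or more libraries, and p-values were adjusted over all of them. Without further terms it called 0 genes at an adjusted p under 0.05 (0% of the genes tested), with 773 at an unadjusted p under 0.05 and a smallest adjusted p of 0.0581. All 10 members were tested, and 2 of them were at an unadjusted p under 0.05. Tables of the same replicate number list the same transcripts at the same loci, while 1707 shared transcripts have another locus between the numbers. The authors' processing thus differed between the numbers, although no label or header names a batch. The same fit with the replicate number as a term called 1.53% of all genes higher and 1.90% lower. It called 0 members higher and 2 lower, IL11 and IL6R. Since this contrast chose the members, nothing is read from that count. With so few libraries, the fit with that term has little data for each gene's own variance. Its p-values therefore rest largely on the variance that limma shares over genes. The labels state no pairing, and a pair here is the knockdown and control library of the same replicate number.

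By overlap alone, 3 members (IL11, IL6R and STAT3) were lower in both knockdown libraries than in both controls, and 2 (IL6ST and LIFR) were higher. Over all tested genes the shares were 16.6% lower and 19.4% higher, so with 2 libraries a group a lack of overlap is common. The pairs disagreed in sign for 4 members (LIF, IL6, IL11RA and SOCS3), against 32.9% of all tested genes.
The median log2 difference of the 10 members was 0.03, with -0.15 in the replicate 1 pair and 0.33 in the replicate 2 pair, beside 0.01, -0.01 and 0.03 for all genes tested. Knockdown replicate 1 was above knockdown replicate 2 for 8 of the 10 members, all but IL11 and IL6ST. The share over all genes was not counted for the knockdown libraries, so nothing is read from that number. Control replicate 1 was above control replicate 2 for the same 8 members and for 58.1% of all genes. It was the highest library for 5 members and 33.9% of all genes. Without that library the log2 differences of LIF, IL6 and IL11RA were 0.55, 1.096 and 0.41, against -0.06, 0.39 and 0.12 with it.

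**Figure D3:**
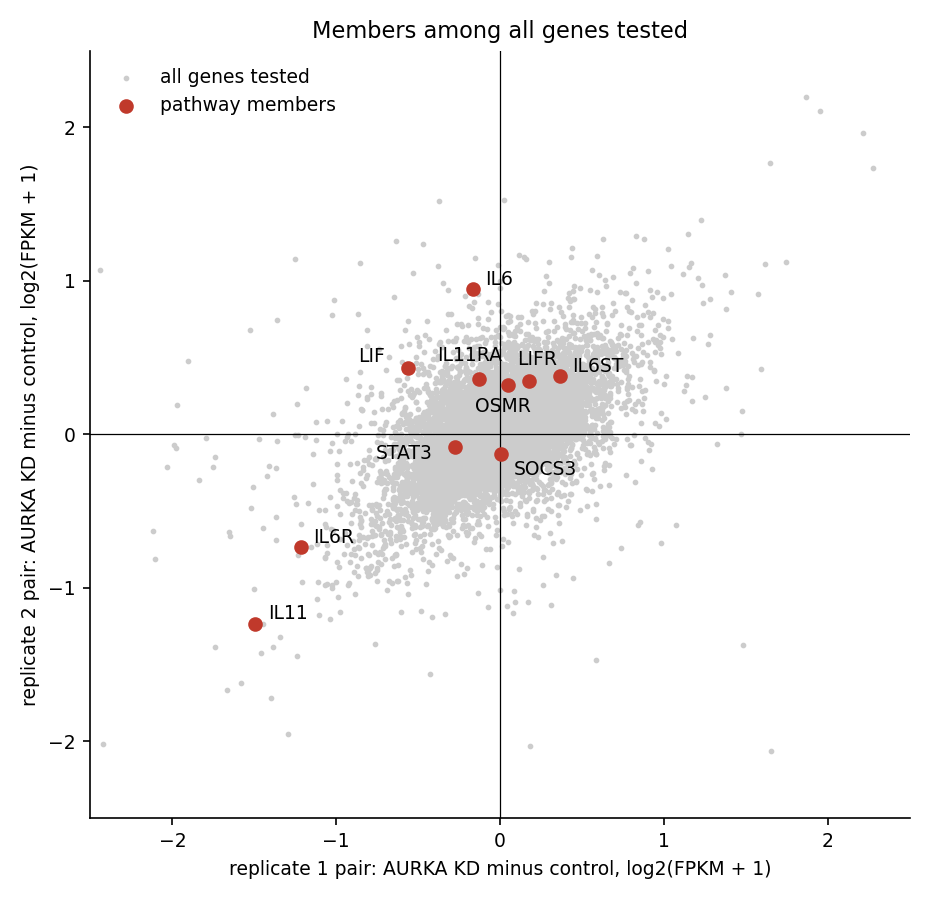
Difference between AURKA knockdown and control (AURKA KD minus control, log2(FPKM + 1)) in the replicate 1 pair (horizontal) and the replicate 2 pair (vertical) for all 12136 genes tested (grey) and the 10 members (red). IL11 lies at -1.49 and -1.23, and IL6R at -1.21 and -0.73, while IL6ST lies at 0.36 and 0.38. A further 10 genes lie beyond the axes, which end at 2.5.

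The deposited unit is the transcript, and the members have 53 of them, of which 26 were above 0 in all 4 libraries and 12 were at 0 in all. Transcripts of a gene share most of their sequence, so the split among them is an estimate of the authors' program. For IL11, 2 transcripts made up nearly the whole level. ENST00000585513 had 14.1 and 15.9 FPKM in the knockdown libraries, against 37.8 and 44.0 FPKM in the controls. ENST00000264563 had 11.005 and 17.1 FPKM in the knockdown libraries, against 34.5 and 35.8 FPKM in the controls. Their shares of the gene were alike in the groups, with a mean of 50.2% and 46.1% in the knockdown and 51.9% and 44.7% in the controls, so the lower level was in both.

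LIF had 2 transcripts, and the longer one (ENST00000249075) made up 57.1% and 56.8% of the gene in the knockdown libraries, against 57.2% and 66.6% in the controls. For IL6ST the longest listed form above 0, ENST00000381298, had 24.1 and 26.4 FPKM in the knockdown libraries, against 18.1 and 20.1 FPKM in the controls. It thus carried most of the difference of the gene, at 72.4% and 67.3% of its level in the knockdown libraries and 70.3% and 67.4% in the controls.

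OSMR, whose sum overlapped between the groups, did not overlap in its long transcript. ENST00000274276, of 5539 bases in GENCODE 29, had 23.6 and 24.6 FPKM in the knockdown libraries, against 13.8 and 17.5 FPKM in the controls. The shorter ENST00000502536, of 1740 bases, had 10.4 and 7.46 FPKM in the knockdown libraries, against 18.6 and 7.60 FPKM in the controls. Its value was high in control replicate 1 only, where it made up 54.9% of the gene, against 28.8% in control replicate 2 and 29.5% and 22.4% in the knockdown libraries.
IL6R was nearly all ENST00000368485, at 0.858 and 0.678 FPKM in the knockdown libraries, against 2.93 and 1.79 FPKM in the controls. A second form, ENST00000344086, was listed at 0 in each knockdown library, against 0.220 and 0.118 FPKM in the controls. STAT3 was led by ENST00000264657, at 56.0% and 47.1% of the gene in the knockdown libraries and 50.4% and 46.8% in the controls. The level of SOCS3 was all in ENST00000330871.

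**Figure D4:**
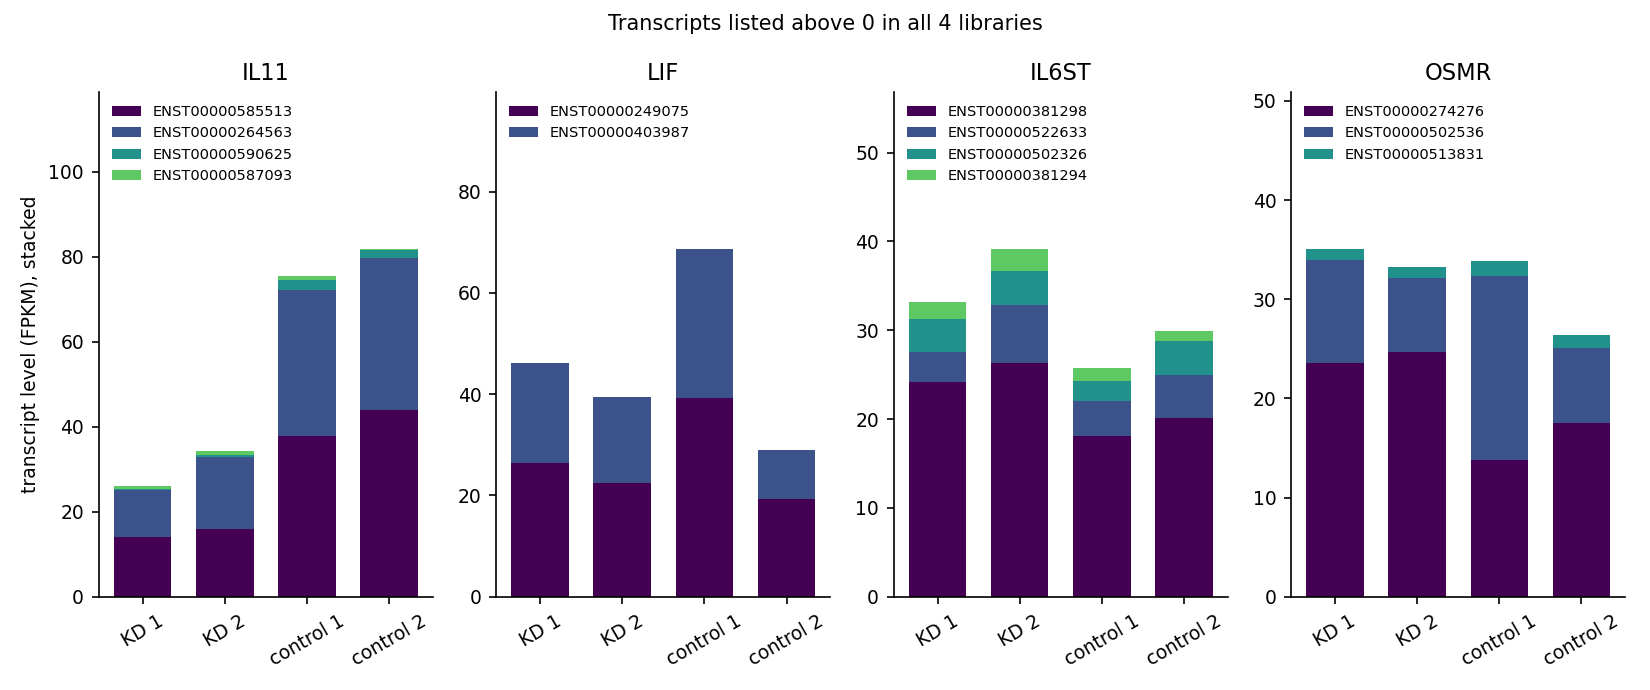
Transcript levels in FPKM, stacked from 0, of IL11, LIF, IL6ST and OSMR in knockdown replicates 1 and 2 (KD 1, KD 2) and control replicates 1 and 2, for the transcripts above 0 in all 4 libraries. In IL11 both large transcripts are lower in the knockdown, and in OSMR the transcript ENST00000502536 takes 54.9% of control replicate 1.

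A 7-base word, GAGACCT, was counted in the 3′ UTRs because earlier results of these data had shown it often among genes lower in the knockdown. It stood in the longest annotated 3′ UTR of 39.2% of the 227 searched genes called lower with the replicate number as a term, of 6.08% of the 181 called higher, and of 11.1% of all 11702. The word was picked from these same data, so these shares describe that choice and are not independent evidence. UTR lengths were not matched between the sets of genes. No source used here gives the hairpin sequence. Of the members, IL11, IL6R and IL6ST held it, and each site is shown with the word in capitals, from GENCODE 29.
IL11: tggagggGAGACCTccattca
IL6R: taacagaGAGACCTtattgga
IL6ST: aataagcGAGACCTaattaaa

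The IL11 site covers bases 1174 to 1194 of ENST00000264563 (chromosome 19), the IL6R site bases 5660 to 5680 of ENST00000368485 (chromosome 1) and the IL6ST site bases 1877 to 1897 of ENST00000381287 (chromosome 5). The IL6ST transcript with the site was listed at 0 in all 4 libraries. The word was in no annotated 3′ UTR of the IL6ST transcripts above 0, and the rest of those transcripts was not searched. In IL11, ENST00000585513, whose annotated 3′ UTR of 448 bases does not hold the word, was as much lower in the knockdown as ENST00000264563, which does: the log2 differences of the pairs were -1.36 and -1.42 for the transcript without it and -1.56 and -1.02 for the transcript with it. Reads of the shared part cannot be assigned to either with certainty, and the part of the word in the levels of IL11 and IL6R was not tested.

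The 103 other genes of the pathway stood in 6 lists. Of these, 77 were tested. In limma 0 of them passed without the replicate number, and with it 2 rose and 3 fell, which is 5 of 77, beside 1.53% and 1.90% of all genes. That fit with median-of-ratios scaling called 18 of them, beside 1169 of all 12136 genes tested (503 higher and 666 lower). Of the 18, ERAP1 and MUC1 were higher in the knockdown and the others lower. The median log2 difference of the 77 was -0.05, with -0.12 in the replicate 1 pair and 0.05 in the replicate 2 pair.

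Of 16 further ligands and receptors of the family, 6 were tested and 0 passed. CLCF1, a ligand of the CNTF receptor, was at 13.3 and 11.05 FPKM in the knockdown libraries, against 13.0 and 9.87 FPKM in the controls. IL31RA, which pairs with OSMR for IL31, was at 3.88 and 3.44 FPKM in the knockdown libraries and 5.81 and 4.58 FPKM in the controls, and IL27RA, which pairs with gp130 for IL27, at 3.23 and 2.10 FPKM in the knockdown libraries and 4.79 and 3.15 FPKM in the controls. Oncostatin M itself (OSM) was at 0.0809 and 0.0825 FPKM in the knockdown libraries and listed at 0 in the controls.

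Of 10 JAK and STAT genes outside the members, 9 were tested and 0 passed at the deposited scaling. With median-of-ratios or upper-quartile scaling and the replicate number as a term STAT4 passed, which was at 1.59 and 0.671 FPKM in the knockdown libraries and 3.58 and 1.74 FPKM in the controls and is named here after its values were seen. STAT6, which acts downstream of IL4, was at 48.4 and 49.5 FPKM in the knockdown libraries and 37.7 and 42.3 FPKM in the controls, and the kinase TYK2 at 40.4 and 36.8 FPKM in the knockdown libraries and 55.7 and 41.5 FPKM in the controls. These 2 did not overlap between the groups, with adjusted p of 0.116 and 0.132 in limma with the replicate number as a term.

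Among 20 tested inhibitors and adaptors 0 passed in either fit at the deposited scaling and the filter of 1 FPKM. GRB2, the adaptor that links receptors to RAS, was at 51.3 and 54.0 FPKM in the knockdown libraries and 66.2 and 71.2 FPKM in the controls (limma with the replicate number, adjusted p 0.0545). PTPN11, the phosphatase SHP2 that binds the same gp130 site as SOCS3, was at 57.8 and 69.6 FPKM in the knockdown libraries and 72.1 and 92.2 FPKM in the controls (adjusted p 0.0614). Both passed that fit with median-of-ratios or upper-quartile scaling, and GRB2 also with a filter at 5 FPKM. The inhibitors SOCS2, PTPN6 and PTPN1 were called lower in that fit with median-of-ratios scaling only. SHC1, a further adaptor, was at 85.5 and 80.8 FPKM in the knockdown libraries and 93.4 and 84.4 FPKM in the controls.
Of 8 genes of receptor shedding and trafficking, ERAP1 rose at the deposited scaling with the replicate number as a term. It is an aminopeptidase also linked to receptor shedding, and it had 18.4 and 18.5 FPKM in the knockdown libraries, against 13.4 and 10.7 FPKM in the controls (log2 0.58, standard error 0.12, adjusted p 0.0487 in limma with and 0.569 without the replicate number). The shedding protease ADAM10 was at 63.7 and 64.2 FPKM in the knockdown libraries and 60.0 and 62.2 FPKM in the controls. The chaperone CANX and the protease FURIN overlapped between the groups. RHBDF2, named here after its values were seen, was called lower with that term and median-of-ratios or upper-quartile scaling. It was at 16.6 and 10.6 FPKM in the knockdown libraries and 23.1 and 13.3 FPKM in the controls.

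STAT3 target genes showed no common direction: of 34, 22 were tested, and with the replicate number as a term MUC1 rose and PIM1 and FOS fell. The median log2 difference was -0.09, with -0.30 in the replicate 1 pair and 0.09 in the replicate 2 pair. MUC1, a cell-surface mucin, had 2.00 and 1.83 FPKM in the knockdown libraries, against 0.713 and 0.340 FPKM in the controls (log2 0.95, standard error 0.18, adjusted p 0.0459 with and 0.546 without the replicate number in limma). It reached 1 FPKM only in the knockdown libraries, so it could only have been higher. PIM1, a survival kinase, had 17.2 and 9.89 FPKM in the knockdown libraries, against 32.9 and 14.6 FPKM in the controls (log2 -0.71, standard error 0.12, adjusted p 0.0327 and 0.853 in the same fits). FOS, an AP-1 subunit, had 1.97 and 6.21 FPKM in the knockdown libraries, against 5.23 and 9.79 FPKM in the controls (log2 -0.82, standard error 0.16, adjusted p 0.0459 and 0.852). For PIM1 and FOS the groups overlapped, and the calls rest on the pairs.

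The 3 most abundant STAT3 targets did not pass at the deposited scaling, and MCL1 (adjusted p 0.0604 in limma with the replicate number) did with median-of-ratios or upper-quartile scaling. HIF1A, the hypoxia factor, was at 204 and 186 FPKM in the knockdown libraries and 233 and 181 FPKM in the controls. BCL2L1, an inhibitor of apoptosis, was at 201 and 181 FPKM in the knockdown libraries and 154 and 168 FPKM in the controls, and MCL1, another, at 122 and 115 FPKM in the knockdown libraries and 221 and 143 FPKM in the controls. In 12 of the 22 tested targets control replicate 1 was the highest library. JUNB and ICAM1, picked after their values were seen, differed 4.62-fold and 5.85-fold between the controls: JUNB was at 38.2 and 20.98 FPKM in the knockdown libraries and 99.8 and 21.6 FPKM in the controls, and ICAM1 at 6.45 and 3.37 FPKM in the knockdown libraries and 25.6 and 4.38 FPKM in the controls. JUNB and ICAM1 did not pass at the deposited scaling. Both were called lower with the replicate number as a term and median-of-ratios or upper-quartile scaling. Whether the levels of LIF and IL6 in control replicate 1 share a source with these was not tested.

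Of 12 factors of cytokine mRNA decay and stability, ZFP36L1 fell with the replicate number as a term. This protein binds AU-rich words and speeds decay, and it had 52.5 and 39.2 FPKM in the knockdown libraries, against 82.8 and 52.2 FPKM in the controls (log2 -0.53, standard error 0.09, adjusted p 0.0341 with and 0.817 without the replicate number in limma). The highest knockdown library was level with the lowest control. Its relative ZFP36 (tristetraprolin), also picked after its values were seen, was at 12.1 and 8.02 FPKM in the knockdown libraries and 35.2 and 8.23 FPKM in the controls. ZFP36 was called lower only with the replicate number as a term and median-of-ratios scaling. RC3H2 was called lower with that term and median-of-ratios or upper-quartile scaling. The abundant AU-binding proteins KHSRP (215 and 229 FPKM in the knockdown libraries, 188 and 217 FPKM in the controls) and HNRNPD (359 and 437 FPKM in the knockdown libraries, 336 and 498 FPKM in the controls) did not pass.

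**Figure D5:**
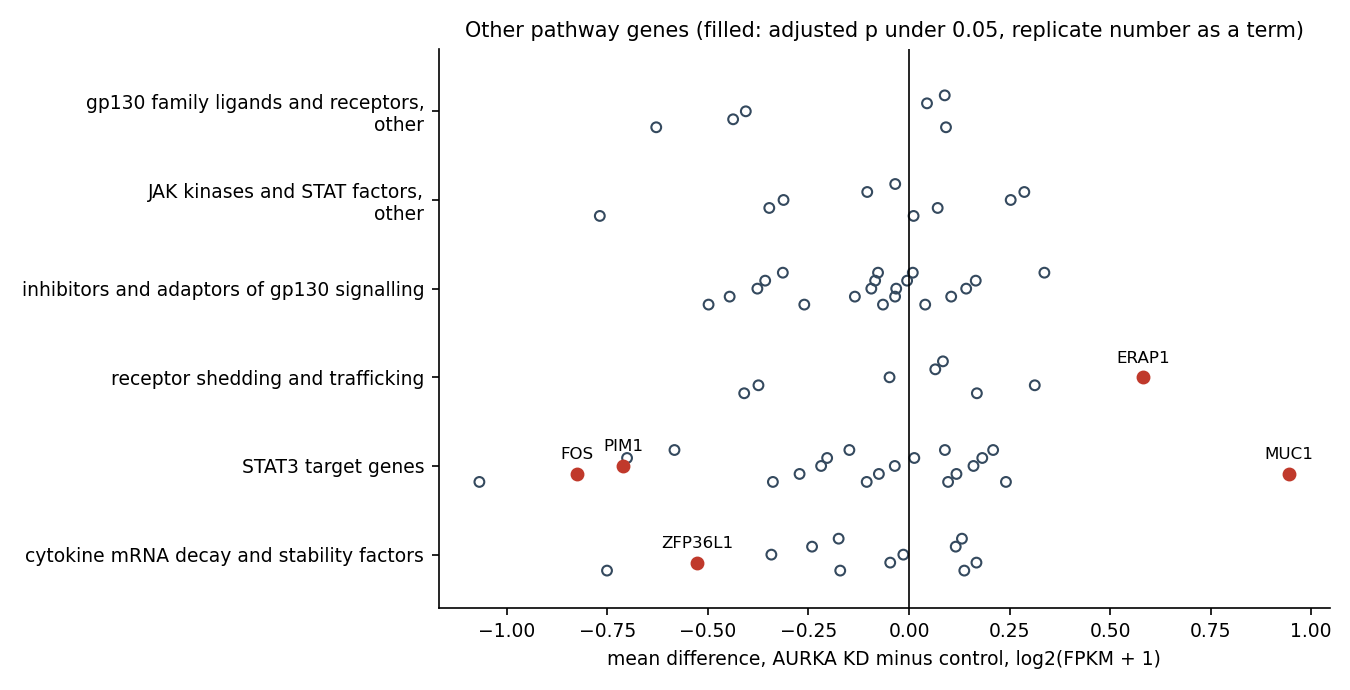
Mean difference between AURKA knockdown and control (log2(FPKM + 1), horizontal axis) of the 77 tested genes in the 6 lists of other pathway genes. Filled points passed limma with the replicate number as a term (5 genes, named), and open points did not. Vertical position within a list only separates points.

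The genes whose pattern over the 4 libraries was nearest to each ligand were found by Euclidean distance of log2(FPKM + 1), centred on each gene's mean. For IL11 they were REPS1 (10.6 and 13.1 FPKM in the knockdown libraries, 30.6 and 32.2 FPKM in the controls, distance 0.08), NAPA (10.1 and 11.9 FPKM in the knockdown libraries, 27.2 and 31.2 FPKM in the controls), KCTD12, AC126614.1 and QDPR, the last at a distance of 0.35. For LIF they were PLA2G6 (5.30 and 3.97 FPKM in the knockdown libraries, 8.36 and 2.71 FPKM in the controls, distance 0.11), IL7, TMEM91, KCNJ13 and DENND3. For IL6 they were CLDN3 (4.47 and 3.33 FPKM in the knockdown libraries, 4.99 and 1.29 FPKM in the controls, distance 0.03), RAD51B, ZNF710, SEC31B and TRPM4. With 4 libraries such likeness is a description only. IL11 stood with genes low in both knockdown libraries, and LIF and IL6 with genes set by the gap between the controls.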

How the data were processed

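Per the labels' protocols, an RNeasy kit gave total RNA and a NEBNext Ultra kit the libraries. Tools named in the submitters' processing notes are HTSeq 0.8.0 and bcl2fastq 2.19, with the build hg38. The authors quantified reads per transcript before they deposited the files, with 1 value per transcript and library, read here as FPKM (length- and depth-normalized) from the form of the values. The headers name no unit, and no source used here gives the program. The files' loci are in GRCh37 coordinates: one on chromosome 4 ends at 191013719.

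The tables were joined by transcript ID (81412 of 81493 shared) and summed by gene ID. Tables that share a replicate number hold identical loci, and 1707 transcripts have another locus under the other number. From this the number, with 1 library of each group, was treated as a processing batch, which no label or header names. The planned test for values that are not counts was used: limma-trend (limma 3.58.1, R 4.3.3) on log2(FPKM + 1), two-sided, with Benjamini-Hochberg adjustment over all genes. It was checked on simulated data. Standard errors come from limma with that number as a term. Depths are rough, from 80 to 117 single-transcript genes per library. UTRs and lengths are from GENCODE 29, matched by ID.

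Members and lists were chosen with earlier results of these data known. Named in each list were the genes past the threshold and the 3 with the highest mean, of which 1 is not reported here. The alternatives were another scaling, pseudocount or filter, and leaving out each library.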

Additional observations from a re-analysis of the deposited data

How the results depend on the processing

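The count of genes called by limma was 0 without the replicate block. It was 417 with the replicate block, 1169 with the block and median-of-ratios scaling, 2 with that scaling alone, 1 with a filter at 5 FPKM, and 6 to 15 when a library was left out. Members called were 2 with the replicate block, 3 (IL6ST added) with the block and median-of-ratios scaling, and 0 to 1 when a library was left out: IL11 passed without knockdown replicate 2, where the lone knockdown library is assumed to vary like the 2 controls. Other pathway genes called were 5 with the block and 18 with the block and median-of-ratios scaling. In fits chosen after seeing the data, the block was joined to upper-quartile scaling (1064 genes, 3 members and 13 pathway genes), a pseudocount of 0.1 (287, 1 and 2), a filter at 5 FPKM (424, 1 and 5) and no filter (0, 0 and 0). IL11 passed in each of these but the last. IL6R and MUC1 were lost with the pseudocount of 0.1 and are not tested at 5 FPKM, and ERAP1 and FOS were lost with the pseudocount. Deviations of same-numbered libraries from their group means correlated at 0.645 over all tested genes, with 2 pairs. The causes were not tested.

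Over the alternatives in which each was fitted, the log2 difference of IL11 stayed between -1.55 and -1.18, that of IL6R between -1.54 and -0.69, and that of IL6ST between 0.26 and 0.49. LIFR, OSMR and STAT3 also kept their sign. LIF, IL6, IL11RA and SOCS3 changed sign in at least 1, each time when a library was left out. IL6, IL6R and IL11RA were each below 4 FPKM in every library. By the estimated depths, the lowest library held about 9.2 fragments of IL6, 45.8 of IL11RA and 107.9 of IL6R, so depth limits IL6 most.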
